A study of Mus musculus with 6 samples.

Results

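Expression of the genes that make serine, pass its carbon to glycine and mitochondrial folate, and make proline was examined in mouse fibroblasts treated with TGFβ. The 10 genes were grouped by their enzymatic role, from the 25140 genes of the count table, with earlier results of these data known. They are *Phgdh*, *Psat1* and *Psph* of serine synthesis, *Shmt1*, *Shmt2*, *Mthfd2*, *Mthfd1l* and *Aldh1l2* of serine cleavage and folate metabolism, and *Aldh18a1* and *Pycr1* of proline synthesis. With TGFβ, 8 of the 10 rose, *Shmt1* fell and *Psat1* did not pass the test. Of all 14334 genes tested, 20.5% were called higher and 20.1% lower, at an adjusted p under 0.05 by edgeR. The rises among the 10 ranged from 1.27-fold for *Phgdh* to 2.09-fold for *Aldh1l2*, and *Shmt1* fell to 0.630 of its vehicle level.

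The cells were primary cardiac fibroblasts from adult C57BL/6 hearts at passage 1, and no transgene or engineered allele is named for either group. All were grown in 25 mM glucose and, per the labels, moved to 1% serum 16 h before the treatment. The methods of the study give 24 h for this step. The vehicle group (n = 3) received no TGFβ and the TGFβ group (n = 3) received 10 ng/mL, both for 24 h. The labels and the methods call the cells cardiac fibroblasts, whereas the results text of the study speaks of embryonic fibroblasts. Polyadenylated RNA was sequenced, and the libraries held 27851677 to 31072338 counted reads.

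The 10 fibroblast markers summed to 56662 to 60522 CPM with vehicle and 61515 to 64369 CPM with TGFβ, where CPM is a gene's count relative to the TMM-scaled library size, on the usual scale of edgeR. *Col1a1*, *Col1a2* and *Fn1*, none of which passed the test, made up most of this sum, and the other 7 markers fell, with log2 fold changes of -1.37 for *Pdgfra* and -1.05 for *Tcf21*, both markers of resident fibroblasts, at the low end. Of the other cell types, the 10 endothelial markers summed to 507 to 783 CPM with vehicle and 459.8 to 642 CPM with TGFβ, with none at 0. None of them passed edgeR's test, 0 had an unadjusted p under 0.05, and DESeq2 and limma-voom called 0. The 8 leukocyte markers in the table summed to 251 to 362 CPM and 215 to 322 CPM, respectively. Of the 8 cardiomyocyte markers, 1 reached a mean of 1 CPM, and their sum was 27.6 to 60.1 CPM over all libraries. The 4 smooth muscle markers summed to 130 to 148 CPM with vehicle and 163 to 224 CPM with TGFβ, and 2 of them were called higher and 0 lower. Pericyte markers summed to 224 to 255 CPM with vehicle and 115 to 142 CPM with TGFβ. Of these 5, *Notch3* fell from a mean of 207 to 57.3 CPM, *Cspg4* rose from 19.5 to 53.3 CPM (log2 fold change 1.45, edgeR adjusted p = 0.000614), and *Rgs5*, *Kcnj8* and *Abcc9* did not pass the test. In bulk RNA, a change in the number of cells of a type and a change in RNA per cell cannot be told apart. The part of these cells in the results below was not tested.

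Serine is made from the glycolytic intermediate phosphoglycerate by dehydrogenation, transamination and dephosphorylation. Serine hydroxymethyltransferase splits it into glycine and a one-carbon unit bound to folate, which feeds purine, thymidylate and methionine synthesis, and mitochondria export part of it as formate. Proline is made from glutamate by a synthase and a reductase, and the intermediate between them is also made from ornithine. Glycine and proline are frequent residues of collagen, the main protein that activated fibroblasts secrete.

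*Phgdh*, *Psat1* and *Psph* encode the 3 enzymes of serine synthesis in the order of the pathway. *Phgdh* (ENSMUSG00000053398), phosphoglycerate dehydrogenase, is a minus-strand gene of chromosome 3 (98313170 to 98339990). Positions here and below are those of GENCODE M21 on GRCm38, the same build as mm10. Its level was 174, 157 and 141 CPM in the vehicle libraries of 31072338, 29296570 and 29331999 counts, and 191, 206 and 201 CPM in the TGFβ libraries of 27851677, 28894151 and 28641986 counts. The same library order is kept throughout. Every TGFβ library lay above the highest vehicle library, which was the one of 31072338 counts. The mean went from 157 ± 16.4 CPM (SD, n = 3) to 199 ± 7.42 CPM (SD, n = 3), a log2 fold change of 0.34 (standard error 0.08) with an adjusted p of 0.00841 by the quasi-likelihood test of edgeR, adjusted over 14334 genes by the Benjamini-Hochberg method. Of the 75-base windows of its longest transcript, 47.4% also occur in other genes' transcripts, 12 of those 13 genes being processed pseudogenes. Together the 13 genes had 121 counts over all libraries beside the 31091 of *Phgdh*. How shared reads were counted is not given in the sources used here, and the level of *Phgdh* is uncertain to that extent.

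*Psat1* (ENSMUSG00000024640, chromosome 19, minus strand, 15904678 to 15947337), phosphoserine aminotransferase, had 73.9, 59.0 and 53.1 CPM with vehicle and 77.8, 68.6 and 67.2 CPM with TGFβ. The groups overlapped, since the vehicle library of 31072338 counts was above 2 of the 3 TGFβ libraries. The log2 difference of 0.20 (standard error 0.12) did not pass the test (edgeR, adjusted p = 0.218). Without the vehicle library of 31072338 counts it was 0.35 with an adjusted p of 0.0170, and over all alternatives run the adjusted p ranged from 0.0170 to 0.510.

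*Psph* (ENSMUSG00000029446, chromosome 5, minus strand, 129765558 to 129787449), phosphoserine phosphatase, had 39.4, 35.1 and 31.7 CPM with vehicle and 63.0, 70.0 and 65.0 CPM with TGFβ. The lowest TGFβ library was well above the highest vehicle library. Its log2 fold change of 0.90 (standard error 0.08, edgeR adjusted p = 0.000127) was the largest of the serine synthesis genes. *Cct6a*, a chaperonin subunit on the opposite strand, shares 452 of the 4329 exon bases of *Psph*, had 334% of its counts and rose by 0.40 (standard error 0.04). Whether the counting used strand is not given in the sources used here, so that reads of both genes in the shared bases cannot be told apart. Summed over the 3 genes, serine synthesis stood at 255 ± 30.8 CPM in the vehicle group and at 337 ± 6.96 CPM in the TGFβ group (SD, n = 3 each), a ratio of 1.32. This sum is not scaled to exon length, and *Phgdh* made up 157 and 199 CPM of it on average.

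*Shmt2* and *Shmt1* encode the mitochondrial and the cytosolic serine hydroxymethyltransferase, and they moved in opposite directions. *Shmt2* (ENSMUSG00000025403, chromosome 10, minus strand, 127517123 to 127522444) had 107, 94.7 and 101 CPM with vehicle and 161, 166 and 191 CPM with TGFβ. Its groups were far apart, with a log2 fold change of 0.77 (standard error 0.07, edgeR adjusted p = 0.000185). *Shmt1* (ENSMUSG00000020534, chromosome 11, minus strand, 60788104 to 60811718) had 4.62, 3.88 and 4.16 CPM with vehicle and 2.30, 2.72 and 2.95 CPM with TGFβ, from 63 to 147 counts a library. Every TGFβ library was below every vehicle library, and the log2 fold change was -0.67 (standard error 0.14, edgeR adjusted p = 0.00692). *Smcr8*, on the opposite strand, shares 184 of the 3883 exon bases of *Shmt1* and had 1857% of its counts, and its own log2 difference was -0.0016 (standard error 0.06, edgeR adjusted p = 0.986).

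Within each library, *Shmt2* had 23.2, 24.4 and 24.2 times the counts of *Shmt1* with vehicle and 70.0, 60.8 and 64.7 times with TGFβ. The log2 of this ratio was higher by 1.44 with TGFβ, and the groups did not overlap. An exact two-sided permutation test of 3 against 3 libraries cannot give a p below 0.1, which was the value for this ratio and for each of the 4 other ratios of paired enzymes below, 0.1 also after adjustment over the 5.

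*Mthfd2*, *Mthfd1l* and *Aldh1l2* encode mitochondrial folate enzymes, and each rose. *Mthfd2* (ENSMUSG00000005667, chromosome 6, minus strand, 83305691 to 83325908), methylenetetrahydrofolate dehydrogenase and cyclohydrolase, had 87.4, 82.7 and 83.5 CPM with vehicle and 148, 146 and 148 CPM with TGFβ. The replicates lay close together and the log2 fold change was 0.80 (standard error 0.04, edgeR adjusted p = 8.73e-06). *Mthfd2l*, the other mitochondrial enzyme of this step, had 7.76, 6.95 and 7.27 CPM with vehicle and 7.02, 7.09 and 7.12 CPM with TGFβ, with a log2 difference of -0.05 (standard error 0.08, edgeR adjusted p = 0.654). Accordingly, the ratio of *Mthfd2* to *Mthfd2l* counts was 11.3, 11.9 and 11.5 with vehicle and 21.1, 20.6 and 20.8 with TGFβ, without overlap.

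*Mthfd1l* (ENSMUSG00000040675, chromosome 10, plus strand, 3973118 to 4167081), the mitochondrial enzyme that releases formate, had 28.4, 29.3 and 28.5 CPM with vehicle and 51.9, 51.0 and 51.0 CPM with TGFβ. It had the smallest adjusted p of the 10 genes, 8.51e-06 by edgeR, at a log2 fold change of 0.84 (standard error 0.04). The cytosolic enzyme *Mthfd1*, which takes formate up into folate, rose less, from 42.5, 39.9 and 41.5 to 53.3, 51.9 and 53.4 CPM (log2 fold change 0.36, standard error 0.04, edgeR adjusted p = 0.000445). The log2 ratio of *Mthfd1l* to *Mthfd1* was higher by 0.48 with TGFβ and did not overlap between groups.

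*Aldh1l2* (ENSMUSG00000020256, chromosome 10, minus strand, 83487450 to 83534140), the mitochondrial formyltetrahydrofolate dehydrogenase, rose most of the 10. Its level was 163, 173 and 141 CPM with vehicle and 342, 349 and 307 CPM with TGFβ. The groups were far apart, at a log2 fold change of 1.07 (standard error 0.08, edgeR adjusted p = 7.01e-05). *D10Wsu102e* on the opposite strand shares 1056 of its 7503 exon bases, had 14.1% of its counts and a log2 difference of -0.13 (standard error 0.06, edgeR adjusted p = 0.0923). The cytosolic counterpart *Aldh1l1* fell from 51.5, 52.0 and 53.7 CPM to 32.2, 34.4 and 35.7 CPM, a log2 fold change of -0.62 (standard error 0.05, edgeR adjusted p = 7.46e-05). *Aldh1l2* thus had 3.17, 3.32 and 2.63 times the counts of *Aldh1l1* with vehicle and 10.6, 10.2 and 8.62 times with TGFβ. Summed over *Shmt2*, *Mthfd2*, *Mthfd1l* and *Aldh1l2*, the mitochondrial enzymes stood at 373 ± 17.2 CPM in the vehicle group and at 704 ± 7.14 CPM in the TGFβ group (SD, n = 3 each), a ratio of 1.89. These sums are not scaled to exon length. *Aldh1l2*, the longest of these genes by exon and the one that rose most, made up 159 and 333 CPM of them on average.

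Both proline synthesis genes rose. *Aldh18a1* (ENSMUSG00000025007, chromosome 19, minus strand, 40550257 to 40588463), pyrroline-5-carboxylate synthase, had 158, 154 and 137 CPM with vehicle and 218, 215 and 209.9 CPM with TGFβ. All TGFβ libraries were above all vehicle libraries, with a log2 fold change of 0.52 (standard error 0.06, edgeR adjusted p = 0.000375). *Pycr1* (ENSMUSG00000025140, chromosome 11, minus strand, 120635712 to 120643769), the mitochondrial pyrroline-5-carboxylate reductase, had 41.2, 35.8 and 34.5 CPM with vehicle and 66.1, 65.1 and 65.1 CPM with TGFβ. Here too the groups were apart, at a log2 fold change of 0.82 (standard error 0.07, edgeR adjusted p = 7.95e-05).

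*Prodh*, proline dehydrogenase of the opposite route, had 1.60, 1.62 and 2.85 CPM with vehicle and 1.43, 1.40 and 1.12 CPM with TGFβ, which did not pass the test (log2 difference -0.62, standard error 0.27, edgeR adjusted p = 0.103). The log2 ratio of *Aldh18a1* to *Prodh* was higher by 1.09 with TGFβ, and by 0.76 without the vehicle library of 29331999 counts, whose *Prodh* level was the highest. *Aldh4a1*, the enzyme after *Prodh* on the opposite route, was named after its values were seen. It had 19.6, 18.9 and 14.5 CPM with vehicle and 18.2, 17.4 and 15.6 CPM with TGFβ. Its log2 difference of -0.05 (standard error 0.12, edgeR adjusted p = 0.760) did not pass the test. Together *Aldh18a1* and *Pycr1* summed to 187 ± 13.9 CPM in the vehicle group and 279.8 ± 4.67 CPM in the TGFβ group (SD, n = 3 each). This sum is also not scaled to exon length, and *Aldh18a1* made up 150 and 214 CPM of it on average.

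**Figure D1:**
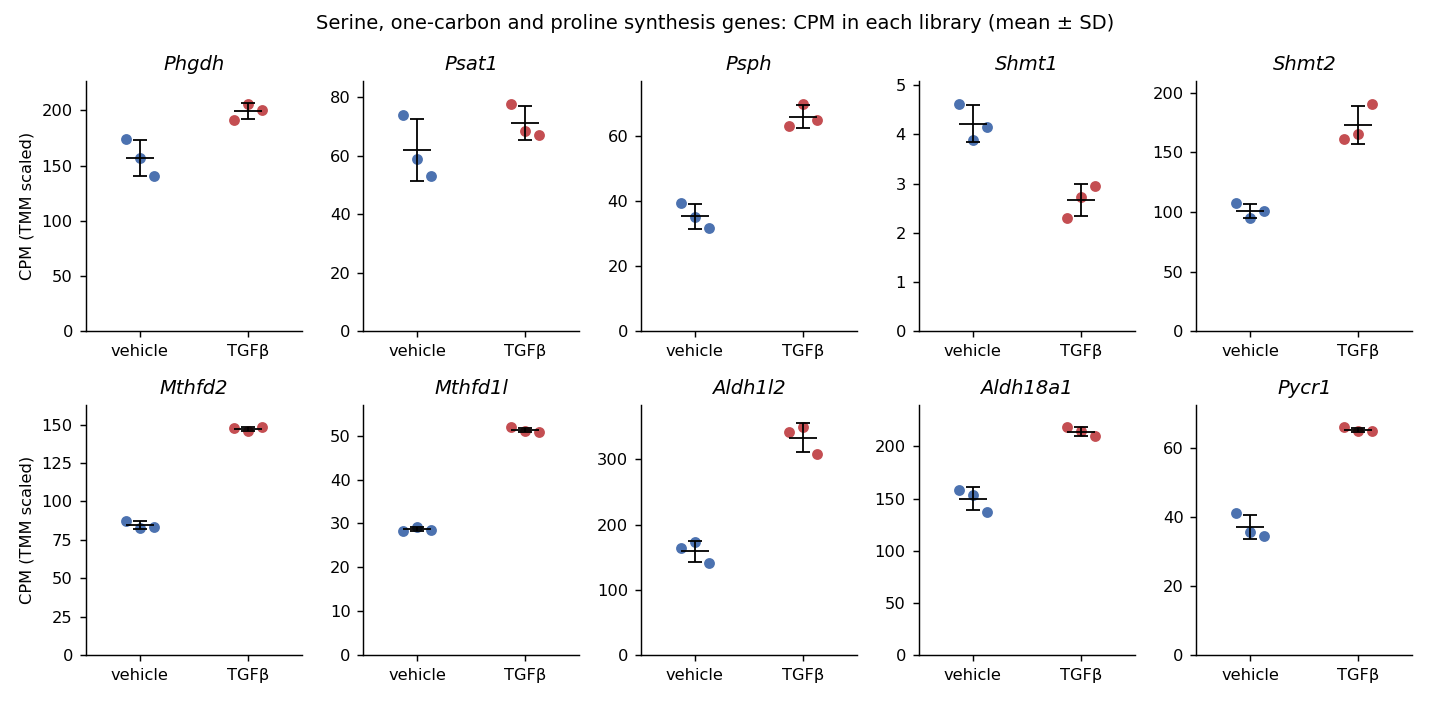
CPM (vertical axes, from 0) of the 10 genes in the 3 vehicle and 3 TGFβ libraries, with each point a library and the bars the mean ± SD. The TGFβ points sit above the vehicle points for 8 genes, below them for *Shmt1*, and among them for *Psat1*.

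**Figure D2:**
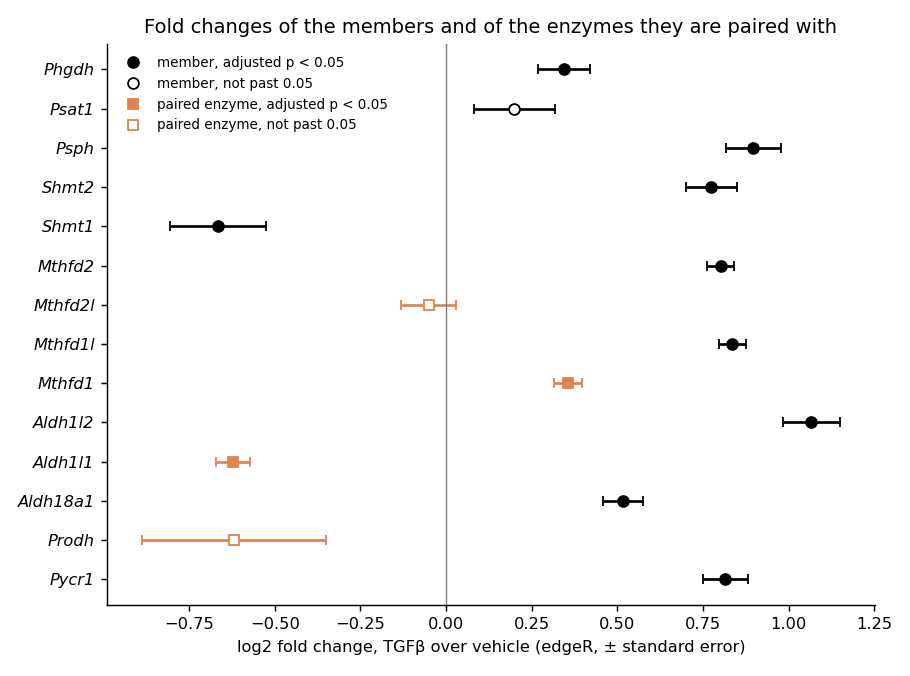
Log2 fold change of TGFβ over vehicle from edgeR with its standard error (horizontal axis) for the 10 genes (circles) and for the enzymes paired with them (squares), filled where the adjusted p is under 0.05. *Aldh1l2* at 1.07 lies at the right end and *Shmt1* at -0.67 at the left end, and each paired enzyme lies to the left of its partner.

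**Figure D3:**
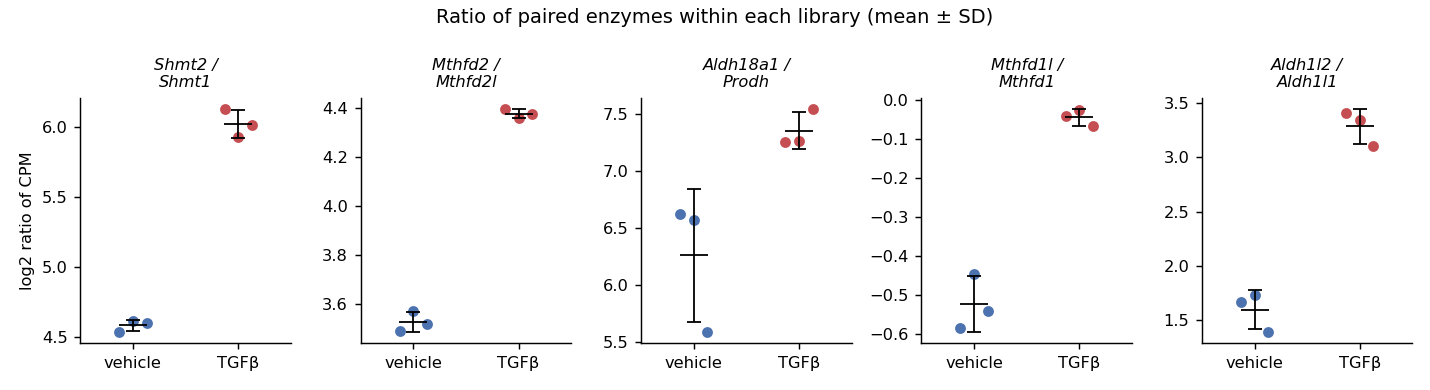
Log2 ratio (vertical axes, each with its own range that does not start at 0) of the counts of paired enzymes within each library, with points for libraries and bars for the mean ± SD. The ratio was higher with TGFβ for all 5 pairs, by 0.48 for *Mthfd1l* to *Mthfd1* up to 1.69 for *Aldh1l2* to *Aldh1l1*.

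The counts of called genes are to be read against the whole table. With TGFβ, 20.5% of the 14334 genes tested were called higher and 20.1% lower at an adjusted p under 0.05, beside 8 and 1 of the 10 genes here. The TGFβ libraries were all above the vehicle libraries in 27.2% of tested genes and all below in 26.1%, beside 8 and 1 of the 10. At an adjusted p under 0.01, 12.9% were called higher and 12.1% lower, and the same 9 genes passed. When a log2 fold change of 1 or more was also required, 2.41% of genes were called higher, and only *Aldh1l2* of the 10 passed. The median log2 fold change was 0.79 over the 10 genes and -0.0013 over all tested genes.

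Levels of different genes were compared as CPM per kilobase of exon. The length was that of all annotated exons of a gene merged, whether or not these cells use them. The limits given above on shared windows and shared exon bases apply to these levels too. With vehicle, *Phgdh* was highest at 63.2 ± 6.60 CPM per kilobase (SD, n = 3), followed by *Aldh18a1* at 36.8 ± 2.69, *Shmt2* at 32.4 ± 1.99, *Mthfd2* at 24.2 ± 0.719 and *Aldh1l2* at 21.2 ± 2.18 CPM per kilobase. Below these came *Psat1* at 14.6 ± 2.53, *Pycr1* at 9.45 ± 0.895, *Psph* at 8.18 ± 0.883, *Mthfd1l* at 6.48 ± 0.112 and *Shmt1* at 1.09 ± 0.0965 CPM per kilobase. The ranges of mean ± SD of *Aldh18a1* and *Shmt2* overlapped, as did those of *Pycr1* and *Psph*. With TGFβ, *Phgdh* stayed highest at 80.2 ± 2.98 CPM per kilobase, and *Shmt2* at 55.5 ± 5.11 overlapped with *Aldh18a1* at 52.6 ± 1.04 CPM per kilobase. *Aldh1l2* at 44.4 ± 2.96 overlapped with *Mthfd2* at 42.2 ± 0.358 CPM per kilobase, and *Psat1* at 16.7 ± 1.36 with *Pycr1* at 16.6 ± 0.140. *Psph* at 15.2 ± 0.828, *Mthfd1l* at 11.6 ± 0.119 and *Shmt1* at 0.684 ± 0.0841 CPM per kilobase kept the last places. By its mean over both groups, *Phgdh* was above 95.9% of tested genes on this scale and *Shmt1* above 21.7%.

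Among the vehicle libraries, many of these genes deviated in the same direction. The vehicle library of 31072338 counts was the highest of its group in 8 of the 10 genes, and the one of 29331999 counts the lowest in 6. Each TGFβ library was the highest of its group in 3 or 4 of the 10 genes and above the group mean in 4 to 6. In the library order given above, they were the lowest of their group in 4, 1 and 5 of the 10 genes. The vehicle library of 29331999 counts also had the highest sums of endothelial and leukocyte markers of its group, 783 and 362 CPM, and that of 31072338 counts the highest sum of mesothelial markers, 83.7 CPM against 24.6 and 33.1 CPM. In the TGFβ group, the library of 28641986 counts had the highest endothelial and leukocyte sums, 642 and 322 CPM. That of 27851677 counts had the highest mesothelial sum, 41.6 CPM against 16.1 and 18.9 CPM. Of the 10 genes, 4 and 6 lay above the group mean in these TGFβ libraries, respectively. The part of these cells in the spread was not tested. Deviations from the group means, on the scale of log2(CPM + 0.5), correlated between pairs of genes from -0.85 for *Shmt1* and *Mthfd1l* to 0.98 for *Phgdh* and *Psph*, over the same 6 libraries. Both genes of a pair share the depth and scaling of each library.

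**Figure D4:**
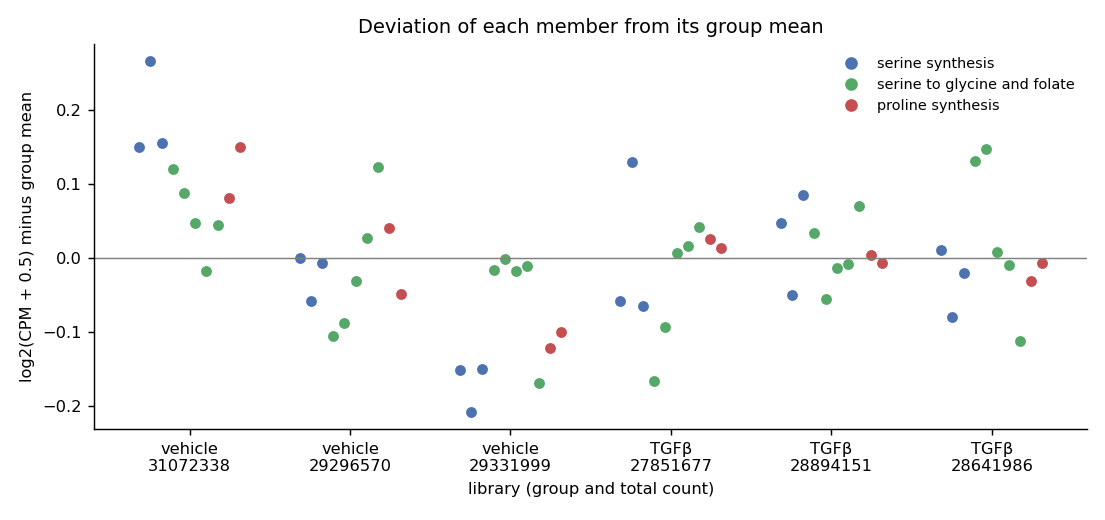
Difference of log2(CPM + 0.5) from the group mean (vertical axis) for each of the 10 genes in each library (horizontal axis, with group and total count), coloured by role. In the vehicle library of 31072338 counts 9 of the 10 points lie above 0, and in that of 29331999 counts all 10 lie below.

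The promoters of the genes were searched because most of them rose together. RefSeq (GRCm38.p6) gave windows of 250 bases before to 50 bases after the start for 9 of the 10 genes, 10 windows in all, and not for *Aldh1l2*. The letters TGATGNAA, a CEBP-ATF composite element of the kind bound by the stress-response factor ATF4, were found on either strand in 3.97% of the 32851 windows of the genome and in 1 of the 10 windows here, that of *Pycr1*. The cAMP response element TGACGTCA was in 1.79% of all windows and the SMAD palindrome GTCTAGAC in 0.213%, and neither was in a window here. The 3 motifs do not overlap each other. A match is a description of letters, not of binding. The windows of *Pycr1* (chr11:120643699-120643998, minus strand), of *Mthfd2* (chr6:83317555-83317854, minus strand), which rose with no match, and of *Shmt1* (chr11:60811216-60811515, minus strand), which fell, are shown 5′ to 3′. The start that RefSeq gives for *Mthfd2* and *Shmt1* lies inside the longer GENCODE gene. Capitals mark the match, TGATGCAA, which begins 103 bases before the start of *Pycr1* at chr11:120643844-120643851.
Pycr1: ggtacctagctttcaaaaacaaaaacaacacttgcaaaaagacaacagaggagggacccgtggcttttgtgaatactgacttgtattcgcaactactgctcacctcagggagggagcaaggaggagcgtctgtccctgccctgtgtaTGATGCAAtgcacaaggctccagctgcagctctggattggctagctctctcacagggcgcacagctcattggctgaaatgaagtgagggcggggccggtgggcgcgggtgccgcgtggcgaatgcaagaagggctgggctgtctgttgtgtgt
Mthfd2: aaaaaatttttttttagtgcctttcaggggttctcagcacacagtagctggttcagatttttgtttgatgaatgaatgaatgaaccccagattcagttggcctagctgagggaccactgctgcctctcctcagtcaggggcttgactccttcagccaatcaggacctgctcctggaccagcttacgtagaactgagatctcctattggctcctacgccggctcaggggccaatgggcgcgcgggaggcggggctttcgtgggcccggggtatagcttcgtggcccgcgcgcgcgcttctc
Shmt1: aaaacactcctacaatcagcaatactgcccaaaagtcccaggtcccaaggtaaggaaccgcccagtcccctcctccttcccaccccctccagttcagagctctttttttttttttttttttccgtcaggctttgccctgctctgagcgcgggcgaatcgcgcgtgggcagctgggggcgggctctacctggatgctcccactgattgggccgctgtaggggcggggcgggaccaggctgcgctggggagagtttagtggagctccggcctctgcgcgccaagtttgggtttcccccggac

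The other genes of the same pathways changed in both directions. Of 68 tested genes of folate metabolism, serine and glycine use, proline metabolism, the methionine cycle, purine synthesis and amino acid carriers, 27 rose and 13 fell, with a median log2 fold change of 0.11, beside 20.5% and 20.1% of all genes. Of the 17 other folate genes, 8 rose and 3 fell, with the folate receptor *Folr1* at one end (log2 fold change 0.78, standard error 0.14, edgeR adjusted p = 0.00398) and *Aldh1l1* at the other. *Tyms*, thymidylate synthase, which uses the same one-carbon units and was named after its values were seen, rose from 19.6, 20.5 and 20.3 to 30.9, 31.8 and 30.3 CPM.

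Of 13 tested genes that use serine or glycine, 4 rose and 4 fell. *Gcsh* and *Gldc* encode the H and P proteins of the glycine cleavage system, and the first rose by 0.57 (standard error 0.05, edgeR adjusted p = 0.000124) on the log2 scale while the second changed by -0.88 (standard error 0.13, edgeR adjusted p = 0.00158). *Gldc* went from 16.0, 17.7 and 14.7 CPM to 8.99, 10.2 and 7.05 CPM, without overlap. Of 9 tested genes of proline and glutamate metabolism, 4 rose and 2 fell. Both that fell act on or yield glutamate, and the second also leads to proline. *Glul*, glutamine synthetase, went from 147, 146 and 154 to 71.6, 70.0 and 77.3 CPM. *Oat*, ornithine aminotransferase, named after its values were seen, went from 404, 414 and 417 to 240.4, 248 and 244 CPM. Its log2 fold change was -0.75 (standard error 0.04, edgeR adjusted p = 1.14e-05). From ornithine, *Oat* makes pyrroline-5-carboxylate, which *Aldh18a1* makes from glutamate, so not every gene that leads to proline rose.

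Of 9 tested genes of the methionine cycle and transsulfuration, 3 rose and 1 fell, and the extremes were the consecutive enzymes of transsulfuration, which uses serine to make cysteine. *Cbs*, cystathionine β-synthase, had 1.85, 1.82 and 1.91 CPM with vehicle and 0.512, 0.430 and 0.631 CPM with TGFβ (log2 fold change -1.82, standard error 0.20, edgeR adjusted p = 0.000317). Its TGFβ values rest on only 14, 12 and 18 counts. *Cth*, cystathionine γ-lyase, had 6.72, 3.94 and 7.17 CPM with vehicle and 16.4, 12.9 and 23.2 CPM with TGFβ (log2 fold change 1.55, standard error 0.27, edgeR adjusted p = 0.00282). For both genes the groups were apart. Of 11 purine synthesis genes, 5 rose and 1 fell, all by small steps, from *Paics* at -0.31 to *Atic*, which takes in a one-carbon unit, at 0.35.

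Of 9 carriers of serine, glycine and proline, 3 rose and 2 fell. *Slc38a1*, a neutral amino acid carrier, rose by 0.80 (standard error 0.11, edgeR adjusted p = 0.000955) on the log2 scale. *Sfxn1*, a mitochondrial serine carrier, had a log2 fold change of -0.55 (standard error 0.06, edgeR adjusted p = 0.000234). *Sfxn3* and *Sfxn2*, of the same family and named after their values were seen, did not pass (log2 differences 0.03 and 0.10, edgeR adjusted p = 0.619 and 0.382). The other carriers that passed, named after their values were seen, were the glycine carrier *Slc6a9* at 0.74, the serine and alanine carrier *Slc1a4* at 0.70 and *Slc1a5*, which carries serine, alanine and glutamine, at -0.54. With vehicle, *Slc1a5* averaged 314 CPM and *Slc1a4* 88.4 CPM.

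Several of the 10 genes are known targets of ATF4, the transcription factor of the amino acid response. *Atf4* itself rose from 283, 285 and 262 to 325, 324 and 322 CPM (log2 fold change 0.23, standard error 0.05, edgeR adjusted p = 0.00558). Of the 28 genes of this axis other than the 10, 16 rose and 3 fell, with a median of 0.20. The shares of all tested genes, 20.5% higher and 20.1% lower, are the background for this and the other lists. The 9 genes of the axis that did not pass included *Atf3*, *Atf5*, *Ddit3*, *Sesn2* and *Ppp1r15a*, named after their values were seen. *Fgf21*, a secreted stress hormone, rose most, from 0.126, 0.303 and 0.369 CPM to 4.31, 3.90 and 7.12 CPM, and *Cebpb*, a partner of ATF4, fell most, from 211, 205 and 215 to 96.2, 95.3 and 111 CPM. The vehicle values of *Fgf21* rest on only 4, 9 and 11 counts. *Asns*, asparagine synthetase, named after its values were seen, rose by 0.58 (standard error 0.06, edgeR adjusted p = 0.000197). Of 20 tRNA synthetases, 19 rose and none fell by edgeR, with 0 lower at an unadjusted p under 0.05 and 0 lower by DESeq2 or limma-voom. They had a median of 0.31 and a largest rise of 0.61 for *Lars*, the leucyl enzyme, and the glutaminyl enzyme *Qars* had a log2 difference of 0.03 (edgeR adjusted p = 0.624).

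Of the 10 fibrillar collagen chains and prolyl hydroxylase subunits, products rich in glycine and proline and the enzymes that modify them, 5 rose and 2 fell. Of the 6 collagen chains, *Col5a1* and *Col5a2* rose, by 0.29 and 0.40 on the log2 scale, and *Col3a1* and *Col5a3* fell. *Col3a1*, among the most abundant of them and named with the *Col5a* chains that rose after its values were seen, went from 15402, 18977 and 20460.1 CPM to 8346, 9583 and 10747 CPM (log2 fold change -0.94, standard error 0.13, edgeR adjusted p = 0.00104). Of the 4 hydroxylase subunits, 3 rose. *P4hb*, the hydroxylase β subunit, rose from 1392, 1347 and 1384 to 1981, 2069.9 and 2059.6 CPM, and *Col5a3* had a log2 fold change of -1.06 (standard error 0.23, edgeR adjusted p = 0.00851). Genes of cell division, which takes up purines and thymidylate, went the other way. Of 12, 8 fell, and none rose by edgeR (0 higher at an unadjusted p under 0.05, and 0 by DESeq2 or limma-voom). The median was -0.64, and *Tk1*, thymidine kinase, fell most (log2 fold change -1.16, standard error 0.20, edgeR adjusted p = 0.00284). Their summed level was 182 to 205 CPM with vehicle and 128 to 155 CPM with TGFβ.

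**Figure D5:**
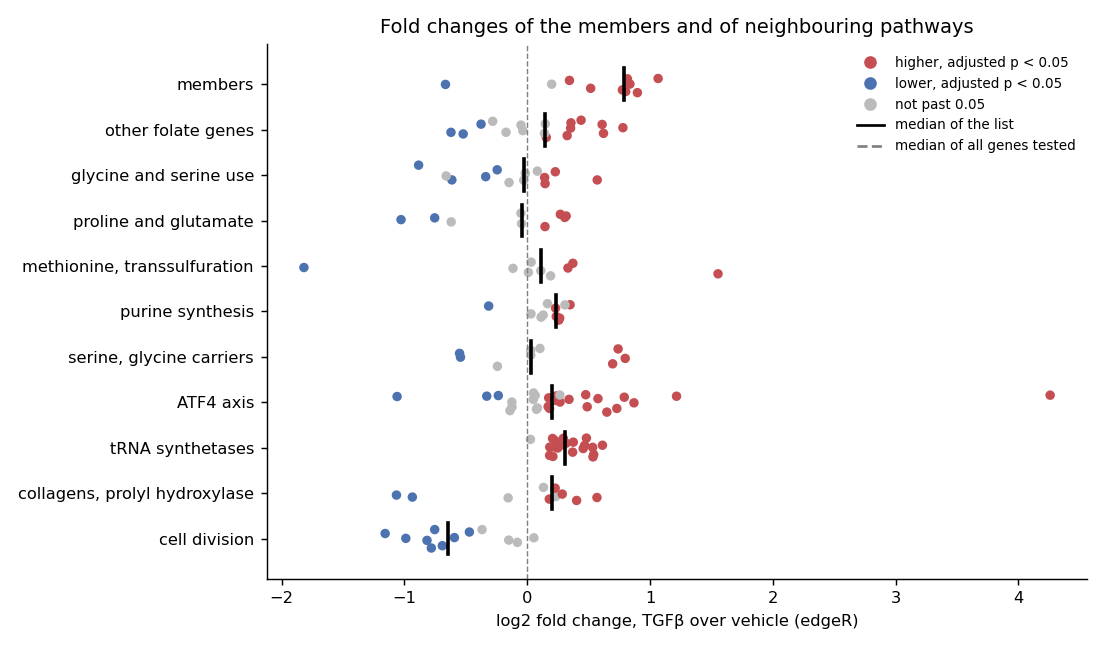
Log2 fold change of TGFβ over vehicle from edgeR (horizontal axis) for the 10 genes and 10 other lists, with points for tested genes coloured by call, a bar at each list's median and a dashed line at the median of all tested genes. The median was 0.79 for the 10 genes, 0.31 for the tRNA synthetases and -0.64 for the genes of cell division.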

How the data were processed

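RNA-seq libraries of cultured fibroblasts were compared between vehicle (n = 3) and TGFβ (n = 3). Per the labels, stranded mRNA libraries were made, and the submitters' processing notes name mm10 and DESeq2. The aligner, the counter, its annotation and its use of strand are not given in the sources used here. The authors deposited whole-number counts of reads per gene without normalization. The table also holds their mean of normalized counts, fold changes and p-values, which were not used. Column headers name only the group, without a replicate number. Libraries are therefore told apart by their total count, and none was matched between groups. The study's ATAC-seq was not analysed here.

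Counts were scaled with TMM, filtered with filterByExpr (14334 of 25140 genes kept) and tested with the quasi-likelihood test of edgeR 4.0.16 in R 4.3.3, at an adjusted p under 0.05. Standard errors were derived from the fold change and its F statistic. Ratios of paired enzymes were set against each other with a two-sided exact permutation test, on log2 ratios of counts with no pseudocount (0.5 counts added as an alternative). Exon lengths and positions came from GENCODE M21, which held 25086 of the gene identifiers. Alternatives were edgeR with DESeq2 size factors or upper quartile scaling, DESeq2 1.42.0, limma-voom (limma 3.58.1), no filter, at least 1 CPM in 3 libraries, each library left out, an adjusted p of 0.01, and a log2 fold change of at least 1. On simulated counts with 200 genes changed by 1 on the log2 scale, with 14206 genes tested, edgeR found 93.5% of the 200, and false ones made up 6.5% of its calls. These shares were 93.5% and 8.78% for limma-voom and, on 14334 genes, 86.0% and 6.52% for DESeq2. The simulation gave all genes the same spread beyond counting noise and changed far fewer genes than the 5828 called in the data. Its shares therefore need not hold for the calls made here. Replicates of a group differed beyond counting noise (chi-square per gene 7.94 to 26.8). The study describes the replicates as biological.

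The 10 genes and all lists were chosen with earlier results of these data known. Named from the lists were the called genes with the largest rise and fall of each, and the enzymes paired with a member, unless stated otherwise. Of 208 list genes, 200 were in the table. One result that the rule takes in is not reported here.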

Additional observations from a re-analysis of the deposited data

How the results depend on the processing

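No paired analysis was possible because the table's column headers carry no replicate number. Of 120 log2 fold changes of the 10 genes over 12 alternatives, 119 kept their direction and their side of the threshold, and that of *Psat1* without the vehicle library of 31072338 counts passed it. With each library left out in turn, 8 to 9 of the 10 were called higher and 1 lower, 22 to 26 pathway genes outside the 10 were called higher and 12 to 13 lower, and 4489 to 5481 genes in all. The log2 ratios of paired enzymes kept their direction throughout. An adjusted p of 0.01 called 3595 genes in place of 5828. Requiring a log2 fold change of at least 1 left 971 genes, 1 of the 10 called higher and 0 lower, and 1 pathway gene outside the 10 called higher and 2 lower. The exact tests of ratios cannot pass 0.05 with 3 libraries a group, so their p says nothing of stability. At 63 to 147 counts a library, *Shmt1* was the least deeply measured of the 10.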

Other observations

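Genes whose pattern was most like that of the 10, taken as the mean of their standardized log2(CPM + 0.5), were looked for among 10364 other genes averaging 5 CPM or more, as a description with no test. Over the 6 libraries, the highest Pearson correlations were those of *Guk1*, guanylate kinase, at 0.9991, the histidyl-tRNA synthetase *Hars* at 0.998, the endothelial lipase *Lipg* at 0.998, the selenoprotein *Selenof* at 0.998 and the methionyl-tRNA synthetase *Mars* at 0.998. The libraries share the treatment, depth and scaling. On deviations from the group means, which leave the treatment out, the highest were *Yif1a* at 0.998, *Rab1b* at 0.998, *Slc25a11* at 0.997, *Guk1* at 0.997 and *Crip2* at 0.996. *Guk1* was the only gene in both sets of 5, and its own log2 fold change was 0.64.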
